A study of Mus musculus with 2 samples.

Results

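The genes described here are the subunit genes of the mitochondrial respiratory chain and ATP synthase, from both genomes, in single cells of mouse liver. They were taken by symbol: every gene whose name starts with Ndufa, Ndufb, Ndufc, Ndufs, Ndufv, Cox4i, Cox5, Cox6, Cox7, Cox8, Uqcr or Atp5 on the nuclear side, and mt-Nd, mt-Co, mt-Atp or mt-Cyt on the mitochondrial side. Of the 32285 genes in the matrices 103 matched, 90 nuclear and 13 mitochondrially encoded (mt-encoded), and 101 of them had at least 20 unique molecular identifiers (UMIs, each counting 1 captured RNA molecule) over both matrices. Cox7b2 and Cox8c had 0 UMIs and were dropped, while the scarcest genes kept were Cox6a2 with 24 UMIs and Cox8b with 28. The 88 nuclear genes kept were 36 of complex I, 8 of complex III, 18 of complex IV (with Ndufa4 and Ndufa4l2 counted there), 17 of complex V, 8 complex I assembly factors that share the Ndufa prefix, and Ndufb1-ps, a pseudogene symbol that the annotation lists as a non-coding RNA at a bidirectional promoter. The 13 mt-encoded genes were 7 of complex I, 1 of complex III, 3 of complex IV and 2 of complex V.

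The study compared 2 libraries of liver cells from tumour-bearing Glul f/f mice, in a model of hepatocellular carcinoma with mutant β-catenin. The control mouse was given AAV8-GFP, a liver-directed virus without Cre. The virus of the GS-KO mouse, AAV8-Cre, deletes the floxed Glul gene for glutamine synthetase in infected cells. Both were sampled 7 weeks after the virus, with 1 mouse and 1 library a group. The livers were perfused with collagenase, and cells left in the supernatant of the first spin were enriched for F4/80 with magnetic beads and cleared of dead cells before 3′ tag sequencing. With 1 mouse per group no difference between the libraries has a replicate check, and no p-value is given: values carry exact 95% intervals (Poisson for levels, binomial for shares and ratios) that cover counting error only. Genotype cannot be told apart from the mouse, the preparation or the library.

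The respiratory chain passes electrons from NADH through complex I, ubiquinone, complex III and cytochrome c to oxygen at complex IV, and complex V uses the proton gradient this builds to make ATP. Complexes I, III, IV and V are mosaics. Some of their core subunits in the membrane are encoded by mitochondrial DNA and transcribed inside the organelle as long strands that are cut at the tRNAs between genes. All other subunits are encoded in the nucleus, made in the cytosol and imported. Hepatocytes are rich in mitochondria, whereas neutrophils hold few and live largely on glycolysis.

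A barcode counted as a cell from 500 UMIs and 200 genes upward, provided mt-encoded UMIs made up no more than 20%. Every gene counted toward that limit is one of the 13 described here, so the limit bounds their sum. It removed 848 of 4123 barcodes in the control library (20.6%, interval 19.3 to 21.8). Among GS-KO barcodes it removed 314 of 976 (32.2%, 29.2 to 35.2). After removal of 24 and 7 likely doublets 3251 control and 655 GS-KO cells stayed, with median depths of 7320 and 4104 UMIs, and 1 barcode occurred in both libraries. Clusters were named from marker genes. The 8 compared classes were B-like (494 control and 124 GS-KO cells), T-like (191 and 68), NK or ILC-like (150 and 34), Kupffer-like (292 and 19), macrophage-like (590 and 39), monocyte-like (105 and 51), neutrophil-like (99 and 103) and endothelial-like (113 and 87). Every defining marker of each class had UMIs in both libraries except Klra8, at 0 in the NK or ILC-like cells of the GS-KO library. Clusters 1 (253 and 49 cells), 4 (264 and 39) and 9 (231 and 13) stayed unnamed. Hepatocyte-like cells (404 and 17) were too few in the GS-KO library for the 30-cell minimum and are described after seeing the data. Glul had 2984 counts per 1e+06 UMIs (CPM, interval 2961 to 3006) in control hepatocyte-like cells and 30.2 CPM (13.8 to 57.3; 9 UMIs) in GS-KO ones. In macrophage-like cells it had 244 and 275 CPM. It was lower in the GS-KO library in the 7 other compared classes too, with 96.2 and 31.3 CPM in B-like, 144 and 57.9 in neutrophil-like and 263 and 156 CPM in endothelial-like cells. In Kupffer-like, T-like, NK or ILC-like and monocyte-like cells the counting intervals of Glul overlapped between the libraries. Since the deleted part of Glul is not stated in the labels, a 3′ tag does not by itself check the deletion.

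Sequences of the mt-encoded genes are shown first because the upstream genes of 2 overlapping pairs were higher in the GS-KO library in all 8 compared classes. On the plus strand of chrM (GRCm38) mt-Atp8, for the A6L subunit of ATP synthase, shares its last 43 bases with the start of mt-Atp6, for the proton channel subunit. mt-Nd4l shares 7 bases with mt-Nd4, both for proton-pumping subunits of complex I, and mt-Atp6 shares 1 base with mt-Co3, the third core subunit of cytochrome c oxidase. The genes of the first 2 pairs are known to stay joined in 1 messenger RNA, so a read near the overlap can be counted for either gene. Capitals mark the bases shared with the next gene, at chrM:7910-7969, chrM:10114-10173 and chrM:8548-8607.
mt-Atp8 (last 60 bases): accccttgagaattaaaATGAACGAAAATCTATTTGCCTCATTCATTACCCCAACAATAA
mt-Nd4l (last 60 bases): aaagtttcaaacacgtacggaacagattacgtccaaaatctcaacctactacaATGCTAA
mt-Atp6 (last 60 bases): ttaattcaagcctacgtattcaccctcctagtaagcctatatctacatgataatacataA

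The shared stretch opens with ATG, the start codon of the downstream gene, in both of the longer overlaps, and it ends with TAA, the stop codon of the upstream gene. Some other ends show how these RNAs close, because the library captured RNA by its 3′ end. Capitals mark the last codon as annotated. In mt-Co1, for the catalytic subunit of cytochrome c oxidase, at chrM:5328-6872, the stop codon is complete. In mt-Co3 (chrM:8607-9390) and mt-Cytb (chrM:14145-15288), the latter for cytochrome b of complex III, the gene ends on a single T and a full stop codon exists only after a poly(A) tail is added.
mt-Co1 (last 30 bases): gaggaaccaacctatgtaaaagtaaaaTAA
mt-Co3 (last 30 bases): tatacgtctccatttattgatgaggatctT
mt-Cytb (last 30 bases): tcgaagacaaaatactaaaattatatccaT

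Promoters of the nuclear genes were read from RefSeq (GRCm38.p6), where 73 of the 88 kept genes had an entry. Ndufb1-ps was matched there under the symbol Ndufb1. The NRF1 core (GCGC followed by ATGCGC), on either strand of the 300 bases around the start, occurred in 7 of the 73 (9.59%) and in 0.977% of all 27025 promoters. The ETS core CCGGAAG, the kind of site GABP binds, occurred in 16 (21.9% against 9.12%), and the YY1 motif (AAGATGG followed by CGG) in 5 (6.85% against 0.899%). CCAAT occurred in 42.5% against 37.9%, and TATAAA in 9.59% against 14.2%. The median GC content was 58.3% in the 73 promoters and 52.7% in all, and the motif shares were not adjusted for it. A match is only a string of letters. The promoters of Cox6a1, the form of complex IV subunit 6A found in most tissues, and Cox8b, a subunit 8 form known from muscle and brown fat, are shown because the levels of the 2 genes in hepatocyte-like cells lay far apart (given with the paralogues below). Ndufa4 and Cox7a2, at 1921 and 1032 CPM in control hepatocyte-like cells, had none of the searched motifs. Whether the motifs bear on these levels was not tested. Capitals mark an NRF1 core and, near the start, an ETS core on the reverse strand. Cox6a1 at chr5:115348959-115349208, minus strand, holds both, and a CCAAT that is left unmarked. Cox8b at chr7:140900447-140900696, minus strand, holds no searched motif in the window printed, but TATAAA occurred within the 300 bases searched.
Cox6a1: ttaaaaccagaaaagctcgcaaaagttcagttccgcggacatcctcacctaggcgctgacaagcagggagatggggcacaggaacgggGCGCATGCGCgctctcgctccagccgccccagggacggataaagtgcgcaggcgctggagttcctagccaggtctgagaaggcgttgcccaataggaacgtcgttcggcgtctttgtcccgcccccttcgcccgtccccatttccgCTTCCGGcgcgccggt
Cox8b: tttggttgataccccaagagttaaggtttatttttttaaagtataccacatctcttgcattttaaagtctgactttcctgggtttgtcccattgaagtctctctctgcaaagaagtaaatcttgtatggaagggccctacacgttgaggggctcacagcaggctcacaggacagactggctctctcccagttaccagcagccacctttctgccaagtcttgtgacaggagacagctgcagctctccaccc

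Among the 9 classes named above, nuclear respiratory chain genes were highest in hepatocyte-like cells and lowest in neutrophil-like cells, in both libraries. Unnamed cluster 1 of the GS-KO library was as high, at 48322 CPM (47337 to 49323). Their summed level was 46247 CPM in control and 47701 CPM in GS-KO hepatocyte-like cells, and 9550 and 7904 CPM in neutrophil-like cells. Between these ends lay the NK or ILC-like cells (25198 and 22457 CPM), endothelial-like (21162 and 22591), monocyte-like (20910 and 20922), Kupffer-like (19646 and 21319), macrophage-like (18146 and 18327), T-like (16966 and 17404) and B-like cells (16087 and 15139). The counting intervals of endothelial-like and monocyte-like cells overlapped in the control library (20803 to 21526 and 20612 to 21211 CPM), so that this pair has no order there. Of the 88 nuclear genes 68 had their highest level in hepatocyte-like cells in both libraries. The median gene was 2.56-fold higher there than in macrophage-like cells in the control library and 2.62-fold in the GS-KO library.

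**Figure D1:**
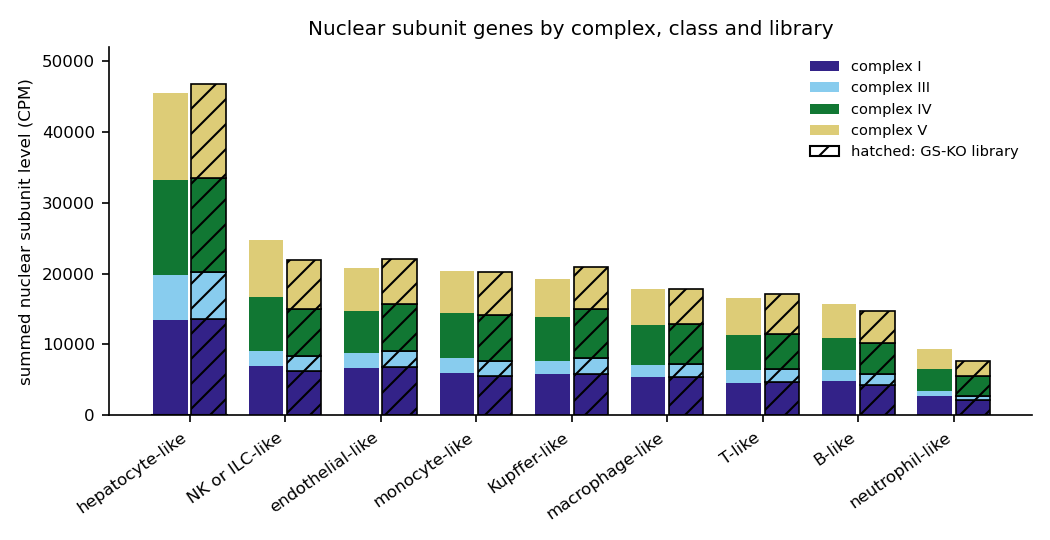
Summed level of the nuclear subunit genes (y axis, CPM) in each cell class (x axis), stacked by complex, with plain bars for the control and hatched bars for the GS-KO library (1 mouse each, no error bars). Hepatocyte-like cells stand above all other classes and neutrophil-like cells below them, with much the same split between complexes in both libraries.

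The split of nuclear UMIs among complexes was alike in most classes but not for complex III, whose 8 genes took 13.7% of them in hepatocyte-like cells of the control library against 9.31% in macrophage-like and 7.38% in neutrophil-like cells. One gene carried much of that: Uqcrq, a small subunit of complex III at chr11:53427922-53430831, had 2191 CPM in control and 2508 CPM in GS-KO hepatocyte-like cells. In macrophage-like cells it had 264 and 245 CPM, and in neutrophil-like cells 144 and 145 CPM. Uqcrh, the hinge protein of complex III (chr4:116066965-116075071), had 755 and 583 CPM in hepatocyte-like cells, 444 and 466 in macrophage-like and 234 and 206 in neutrophil-like cells. Uqcr11, the smallest subunit of that complex (chr10:80402997-80406830), had 965 and 1110 CPM in hepatocyte-like, 226 and 298 in macrophage-like and 50.6 and 51.5 CPM in neutrophil-like cells. Uqcrq and Uqcr11 had their highest named-class level in hepatocyte-like cells in each library, whereas Uqcrh was higher in T-like cells, at 847 and 897 CPM.

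In complex I the most counted nuclear genes were Ndufb9, Ndufa13 and Ndufb8, all accessory subunits of the membrane arm. Ndufb9 (chr15:58933756-58939488) had 878 and 778 CPM in hepatocyte-like cells, 234 and 161 in macrophage-like and 323 and 245 in neutrophil-like cells. It was thus above its macrophage level in neutrophil-like cells, where 78 of the 88 nuclear genes had their lowest control level. That count includes scarce genes, such as Cox8b, that tied at 0 UMIs with other classes. Ndufa13, also known as GRIM-19 (chr8:69894180-69902558), had 705 and 671 CPM in hepatocyte-like, 322 and 284 in macrophage-like and 187 and 148 CPM in neutrophil-like cells. Ndufb8 (chr19:44548572-44555440), an assembly-sensitive subunit often used to gauge complex I, had 587 and 523 CPM in hepatocyte-like cells, 318 CPM in GS-KO macrophage-like cells and 83.7 CPM in GS-KO neutrophil-like cells.

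Of the 3 most counted nuclear genes of complex IV, Ndufa4, once taken for a complex I subunit (chr6:11900292-11907497), spanned most between cell types. It had 1921 CPM in control and 1958 CPM in GS-KO hepatocyte-like cells, 401 and 365 in macrophage-like and 148 and 86.9 in neutrophil-like cells. Cox4i1, the regulatory subunit 4 that binds ATP (chr8:120668222-120674207), spanned less, with 1705 CPM in control hepatocyte-like cells, 995 CPM in macrophage-like and 526 CPM in neutrophil-like cells. Cox8a, the form of subunit 8 found in most tissues (chr19:7215153-7217616), had 1685 and 1388 CPM in hepatocyte-like, 739 and 748 in macrophage-like and 689 and 821 CPM in neutrophil-like cells. Macrophage-like and neutrophil-like cells were thus close for Cox8a and far apart for Ndufa4.

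In complex V, Atp5e, the epsilon subunit of the central stalk (chr2:174461072-174464105), had 1372 and 1418 CPM in hepatocyte-like, 454 and 548 in macrophage-like and 421 and 357 CPM in neutrophil-like cells. Atp5j, a peripheral stalk subunit (chr16:84827866-84835625), had 1052 CPM in control hepatocyte-like, 353 in macrophage-like and 206 CPM in neutrophil-like cells. The ring of the rotor is built from 1 protein encoded by 3 genes, and these differed by cell type. Atp5g1 (chr11:96068852-96075670) had 1163 and 972 CPM in hepatocyte-like cells, 317 and 314 in macrophage-like cells, and 66.2 CPM against 19.3 CPM (6 UMIs) in neutrophil-like cells. Atp5g2 (chr15:102662864-102672352) had 584 and 617 CPM in hepatocyte-like, 479 and 484 in macrophage-like and 129 and 35.4 CPM in neutrophil-like cells. Atp5g3 had 526 and 496, 185 and 161, and 35.1 and 41.9 CPM in the same classes. The level of Atp5g1 in hepatocyte-like cells lay well above that in macrophage-like cells in both libraries, while those of Atp5g2 lay closer together.

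Tissue-specific paralogues were scarce in the named classes. Cox4i2, the form of subunit 4 known from lung and low oxygen, had 2.66 CPM (33 UMIs) in control and 4.66 CPM (3 UMIs) in GS-KO macrophage-like cells. Cox7a1, the heart and muscle form of subunit 7A, had 11.4 CPM (264 UMIs) in control hepatocyte-like cells and 1 UMI in GS-KO ones (interval up to 18.7 CPM). Its partner in most tissues, Cox7a2, had 1032 and 929 CPM there. Cox8b had 1.08 CPM (25 UMIs) in control hepatocyte-like cells and 0 UMIs in the other named classes, with an upper interval bound of 12.4 CPM in GS-KO hepatocyte-like cells, so no difference was detectable at this depth. Cox6a1 had 551 and 654 CPM in the same cells, and Cox6a2, the muscle form, reached 14 and 2 UMIs in macrophage-like cells. Cox6b2, known from testis, had 10.3 CPM (238 UMIs) in control hepatocyte-like cells and 0 UMIs in GS-KO ones (interval up to 12.4 CPM). Neither Cox7a1 nor Cox6b2 thus had a detectable difference there. Cox6b1 had 1021 and 1140 CPM. The high value of Cox6b2 was in unnamed cluster 4 of the GS-KO library, 185 CPM (72 UMIs, 51.4% of them from 1 cell). Ndufa4l2, a paralogue of Ndufa4 induced in low oxygen, had 16.0 CPM (10 UMIs, all from 1 cell) in control and 30.2 CPM (19 UMIs in 4 cells) in GS-KO endothelial-like cells. Of its 104 UMIs in kept control cells, 50 lay in hepatocyte-like cells (2.16 CPM) and 36 in unnamed cluster 1. Cox7a2l, which helps to join complexes III and IV into supercomplexes, went against the common order: it had 658 and 477 CPM in T-like cells and 213 and 231 CPM in hepatocyte-like cells.

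The mt-encoded genes followed another order of cell types than the nuclear ones. In the control library their summed level over the same 9 classes was highest, at 64434 CPM, in hepatocyte-like cells, but endothelial-like (52142 CPM) and neutrophil-like cells (52019 CPM) came next. Neutrophil-like cells, last for 78 of the 88 nuclear genes in the control library (ties at 0 UMIs included), were last for 0 of the 13 mt-encoded ones there. The mix of complexes differed too. In control hepatocyte-like cells 37.7% of mt-encoded UMIs came from the complex IV genes and 17.2% from mt-Cytb, against 53.4% and 10.9% in macrophage-like cells. The levels of single mt-encoded genes showed the same. mt-Cytb had 11085 CPM in control hepatocyte-like and 3954 CPM in macrophage-like cells, while mt-Co1 had 6620 and 6162 CPM and so hardly differed between these classes.

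The number of mt-encoded UMIs per nuclear respiratory chain UMI was lower in the GS-KO library in all 8 compared classes. It was 2.00 (interval 1.99 to 2.01) in control and 1.29 (1.26 to 1.32) in GS-KO macrophage-like cells, and 1.76 (1.74 to 1.77) against 1.29 (1.25 to 1.34) in Kupffer-like cells. Monocyte-like cells had 1.501 and 1.29, endothelial-like cells 2.46 and 1.61, B-like cells 2.97 and 2.43, T-like cells 2.48 and 1.91, NK or ILC-like cells 1.28 and 0.947, and neutrophil-like cells 5.45 and 4.11. No counting interval of a class overlapped between the libraries. The median over single cells was also lower in 7 of the 8 classes (macrophage-like 1.90 against 1.33), while in monocyte-like cells it was 1.107 in control and 1.113 in GS-KO.

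Some of these values depended on which cells were counted. In B-like cells the clusters were filled differently by the libraries: cluster 12 held 444 control and 9 GS-KO cells, and cluster 5 held 8 and 111. Within clusters 5 and 12 the counting intervals overlapped between the libraries. The ratio was 2.18 (1.96 to 2.42) in control and 2.30 (2.24 to 2.37) in GS-KO cells of cluster 5. It was 2.86 (2.83 to 2.90) and 3.03 (2.80 to 3.27) in cluster 12, where a single GS-KO cell carried 52.9% of the UMIs. In cluster 2 it was higher in the GS-KO library, at 5.24 and 26.8, with 4 GS-KO cells. With the limit on mt-encoded UMIs set to 50% and the clustering redone, the T-like ratio was 2.85 in control and 3.00 in GS-KO cells, the other 7 classes stayed lower, and the Kupffer-like ratio (1.80 and 1.77) and the macrophage-like ratio (2.02 and 1.88) came close together. The macrophage-like difference was present in each of its clusters at the 20% limit, with 1.97 and 1.19 in cluster 10 and 2.06 and 1.51 in cluster 11.

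Hepatocyte-like cells went the other way on pooled UMIs, from 1.39 in control to 1.54 in GS-KO cells. The median over cells was lower, 1.08 against 0.696, and without the deepest of the 17 GS-KO cells the pooled log2 ratio between libraries was -0.81 in place of 0.14. Their 2 clusters disagreed, with 2.12 and 0.670 in cluster 3 and 1.37 and 1.74 in cluster 15. The direction in hepatocyte-like cells thus changed with the cells counted. Unnamed cluster 1 carried the hepatocyte markers at 37292 CPM in control and 34290 CPM in GS-KO, beside 49480 and 56375 CPM in hepatocyte-like cells. Its pooled ratio was lower in GS-KO, with 1.85 and 1.34, while its median over cells was higher, with 1.04 and 1.49.

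**Figure D2:**
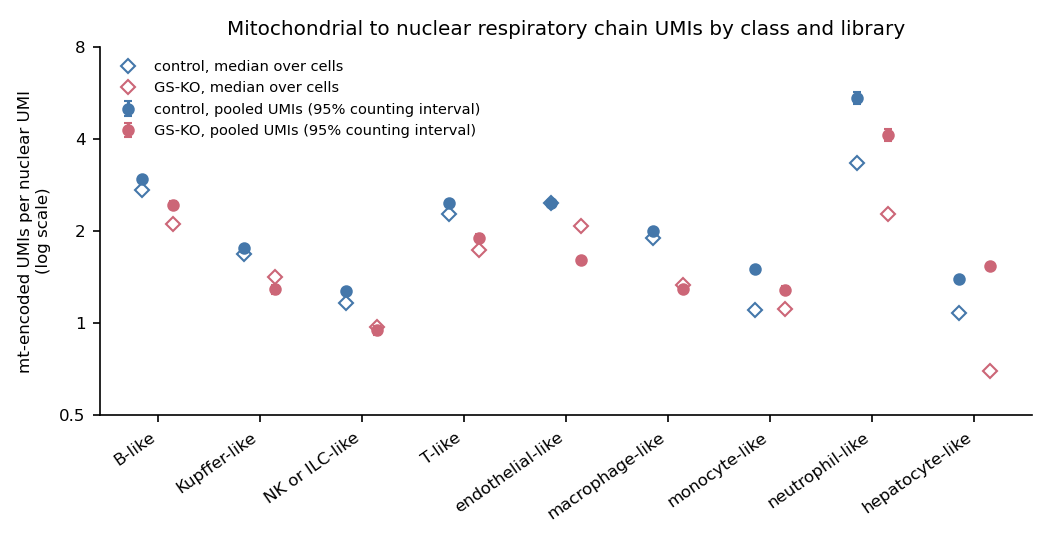
mt-encoded UMIs per nuclear respiratory chain UMI (y axis, log scale) in each cell class (x axis), blue for the control and red for the GS-KO library. Filled circles are pooled UMIs with 95% counting intervals and open diamonds are medians over cells; the filled red circles lie below the blue ones in all classes but hepatocyte-like cells.

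Gene by gene, the lower mt-encoded level was shared by most but not all of the 13. Called here means at least 1.5-fold higher or lower CPM. In macrophage-like cells 2 of 13 mt-encoded genes were higher and 5 lower by this fold, against 12% and 20.2% of all 10804 genes measured in that class. mt-Nd1, for a core subunit near the ubiquinone site of complex I, had 2256 CPM in control and 1346 CPM in GS-KO macrophage-like cells, a ratio of 0.597. mt-Atp6 had 6272 and 3658 CPM, a ratio of 0.583 (0.560 to 0.608). mt-Co2, which takes electrons from cytochrome c, had 5407 and 3267 CPM (0.604), and mt-Co3 had 7768 and 4954 CPM (0.638, 0.615 to 0.661). These 4 genes sit in 3 different complexes, and none of their intervals reached 1.

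Of the 12 mt-encoded genes measured in every class 5 were lower in the GS-KO library in all 8: mt-Nd1, mt-Co2, mt-Atp6, mt-Co3 and mt-Cytb. For mt-Nd1 the ratio ran from 0.494 in neutrophil-like cells (3607 and 1780 CPM) to 0.792 in monocyte-like cells (1861 and 1473 CPM). For mt-Atp6 it ran from 0.495 in neutrophil-like (9188 and 4546 CPM) to 0.692 in T-like cells (8605 and 5951 CPM). For mt-Cytb, the only mt-encoded gene of complex III, it ran from 0.544 in neutrophil-like (5772 and 3139 CPM) to 0.839 in Kupffer-like cells (3574 and 3000 CPM). Of all 1993 genes measured in every class 121 (6.07%) were lower in all 8. The classes share the 2 libraries, so they are not 8 independent observations.

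mt-Co1, the catalytic subunit, behaved otherwise than its 2 partners in complex IV. It had 6337 and 6241 CPM in B-like cells (ratio 0.985), 5917 and 5875 CPM in Kupffer-like cells, 6040 and 6173 CPM in T-like cells, and was higher in monocyte-like cells, at 5565 and 6258 CPM (1.12, 1.07 to 1.18). In macrophage-like cells it was lower, at 6162 and 4492 CPM (0.729). Within complex I, mt-Nd2, part of the proton-pumping arm, had a ratio of 0.535 in NK or ILC-like cells and 1.03 in monocyte-like cells. mt-Nd4 had ratios of 0.699 in macrophage-like (2048 and 1433 CPM) and 1.07 in monocyte-like cells (1946 and 2088 CPM). mt-Nd5, at the far end of the same arm, was above 1 in 7 of 8 classes, from 1.05 in endothelial-like (380 and 397 CPM) to 1.66 in monocyte-like cells, with NK or ILC-like cells the exception at 388 and 272 CPM. mt-Nd3, for a small subunit at the junction of the 2 arms, had 218 and 185 CPM in macrophage-like cells and 254 and 157 CPM in monocyte-like cells (0.617, 0.458 to 0.820). mt-Nd6, the only one on the other strand (minus, chrM:13552-14070) and partly under mt-Nd5, was too scarce to place, with 5 UMIs in GS-KO macrophage-like and 4 in GS-KO Kupffer-like cells.

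**Figure D3:**
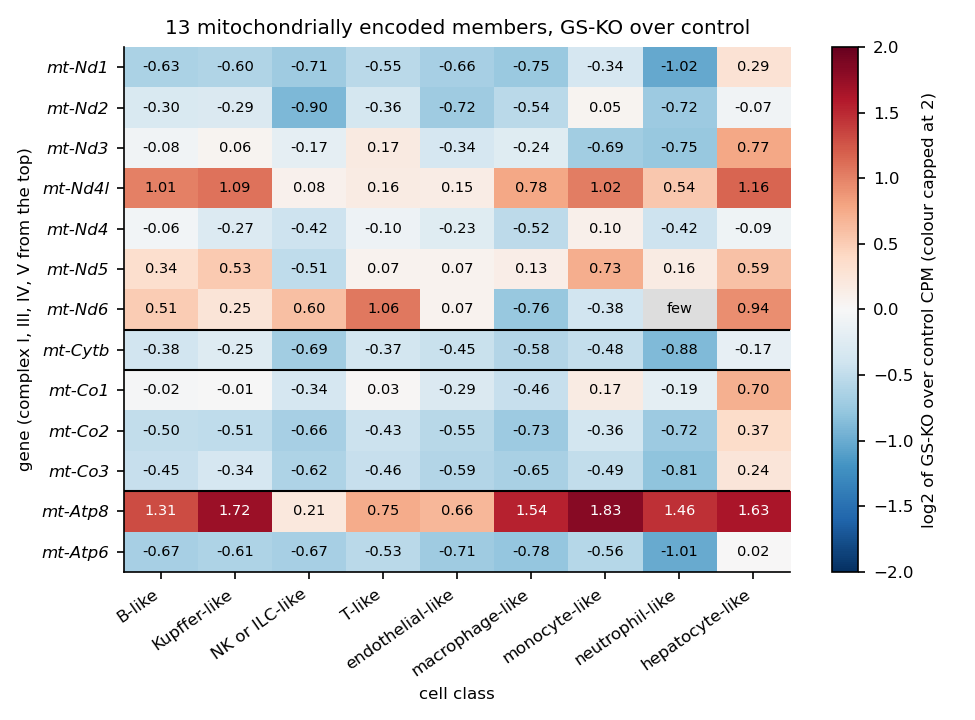
log2 of GS-KO over control CPM (colour and printed value) for each of the 13 mt-encoded genes (rows, grouped by complex) in each cell class (columns), with "few" where UMIs were under the minimum. mt-Nd1, mt-Cytb, mt-Co2, mt-Co3 and mt-Atp6 are below 0 in the 8 compared classes, while mt-Nd4l and mt-Atp8 are above 0 in every column.

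mt-Atp8 and mt-Nd4l, the upstream genes of the 2 overlapping pairs printed above, were higher in the GS-KO library in all 8 classes. mt-Atp8 had 29.8 CPM in control and 86.9 CPM in GS-KO macrophage-like cells, a ratio of 2.92 (2.16 to 3.87), and 55.7 and 199.7 CPM in monocyte-like cells (3.58). It had 79.6 and 198 CPM in B-like cells (2.49, 1.91 to 3.22), 29.8 and 98.5 CPM in Kupffer-like cells (3.30, 2.09 to 5.02), and 54.2 and 63.0 CPM in NK or ILC-like cells (1.16). mt-Nd4l had 79.7 and 137 CPM in macrophage-like cells (1.71) and 149 and 303 CPM in monocyte-like cells (2.03). So in the same cells mt-Atp8 was above its control level and mt-Atp6, which overlaps it, was below.

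The pair can be read as 1 ratio that needs no scaling to the library. Per 100 mt-Atp6 UMIs the control macrophage-like cells had 0.475 mt-Atp8 UMIs (0.428 to 0.526) and the GS-KO ones 2.38 (1.79 to 3.096). Kupffer-like cells had 0.481 and 2.43, B-like cells 0.843 and 3.34, monocyte-like cells 1.12 and 5.94, and neutrophil-like cells 0.763 and 4.32. The value was higher in GS-KO in 8 of 8 classes, and in 7 of them the counting intervals were apart; NK or ILC-like cells (0.899 and 1.66) overlapped. Hepatocyte-like cells had 0.498 and 1.52. For mt-Nd4l per 100 mt-Nd4 UMIs the macrophage-like cells had 3.89 and 9.53, the B-like cells 6.90 and 14.4 and the hepatocyte-like cells 6.47 and 15.4. This was higher in 8 of 8 classes and apart in 5, with the intervals of NK or ILC-like, T-like and endothelial-like cells overlapping.

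**Figure D4:**
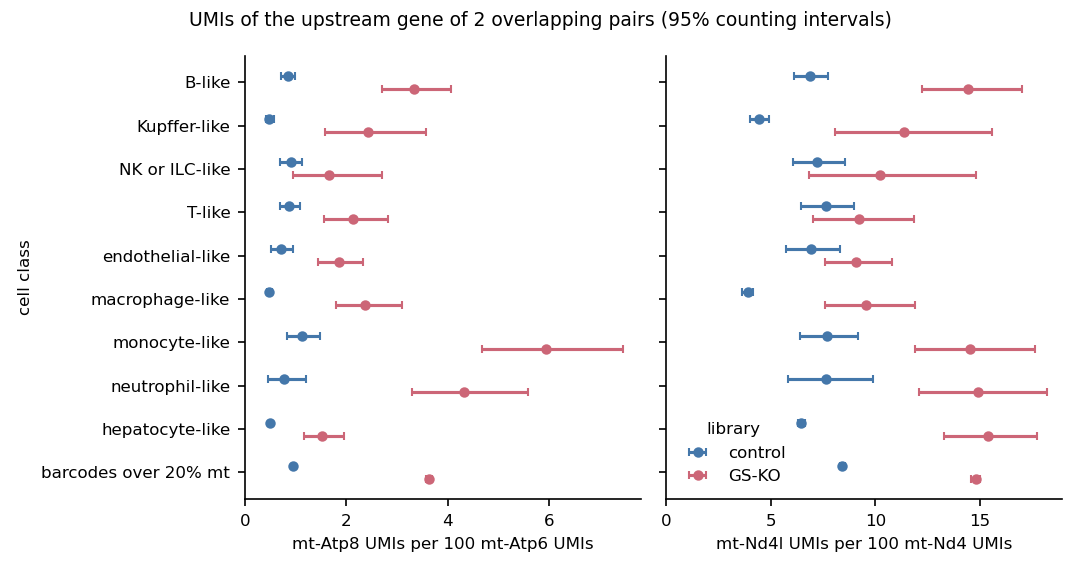
mt-Atp8 UMIs per 100 mt-Atp6 UMIs (left x axis) and mt-Nd4l UMIs per 100 mt-Nd4 UMIs (right x axis) in each cell class and in the barcodes over the 20% limit (rows), blue for control and red for GS-KO, with 95% counting intervals. The red points lie to the right of the blue ones in every row of both panels.

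A few cells weighed on these values. A single GS-KO cell held 53.2% of the mt-Atp8 UMIs of monocyte-like cells, 46.2% of Kupffer-like and 32.1% of macrophage-like cells. Without that cell the GS-KO values per 100 mt-Atp6 UMIs were 2.90, 1.39 and 1.65 in these classes, still higher than control in 8 of 8 classes and with intervals apart in 7. For mt-Nd4l they were still higher in 8 and apart in 4. In hepatocyte-like cells a single GS-KO cell held 71.0% of the mt-Atp8 UMIs, and a single one held 76.8% of the mt-Nd4l UMIs. Without that cell the GS-KO values there were 1.40 per 100 mt-Atp6 UMIs and 9.92 per 100 mt-Nd4 UMIs, still above control. The shift was seen at every mt-encoded share: with barcodes split at 5, 20 and 50%, mt-Atp8 per 100 mt-Atp6 UMIs was 0.501, 0.562, 0.715 and 1.01 in the control library and 1.97, 3.22, 5.47 and 3.56 in the GS-KO library. Because the 2 genes overlap, how the authors' counting assigned shared reads could set these levels, and both mt-Atp8 and mt-Nd4l counts are uncertain for that reason.

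Nuclear respiratory chain genes differed little between the libraries. In macrophage-like cells 2 of the 85 measured were at least 1.5-fold higher and 4 lower, fewer in each direction than the 12% and 20.2% of all genes. In no class was this background matched to the nuclear genes in UMIs a gene. Thinning the cells raised the number of nuclear calls (closing section), so a share under the background can reflect abundance. The median log2 of GS-KO over control was 0.01 for the nuclear genes beside -0.05 for all genes and -0.54 for the mt-encoded ones. The sign of the first changed in 9 of 15 settings, that of the last in 0. Kupffer-like cells had 5 higher and 6 lower of 83 (background 13.3% and 28.4%), monocyte-like cells 5 and 5 of 78 (11.2% and 15.6%), and endothelial-like cells 8 and 0 of 79 (12.1% and 13.2%). B-like cells had 1 and 6 of 81 (6.58% and 26.5%), T-like cells 4 and 4 of 77 (9.46% and 19%), and NK or ILC-like cells 4 and 10 of 80 (11.7% and 25.9%). Neutrophil-like cells stood apart with 3 higher and 24 lower of 60 (13% and 20.5%), a nuclear median of -0.41 beside -0.09 for all genes. The mt-encoded medians were -0.25, -0.34, -0.34, -0.08, -0.10, -0.51 and -0.72 in the order Kupffer-like, monocyte-like, endothelial-like, B-like, T-like, NK or ILC-like and neutrophil-like, and the Kupffer-like value changed sign in 5 of 14 settings. All genes had medians of -0.15, -0.02, -0.01, -0.21, -0.09, -0.16 and -0.09 in that order. The mt-encoded median was thus above that of all genes in B-like cells and close to it in T-like cells. The mt-encoded genes past 1.5-fold in the same order were 2 higher and 2 lower, 3 and 1, 1 and 4, 2 and 2, 2 and 0, 1 and 6, and 1 and 7. Hepatocyte-like cells had 6 higher and 11 lower of 86 nuclear genes (20.8% and 35.5%), with medians of 0.02 for nuclear and 0.37 for mt-encoded genes.

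**Figure D5:**
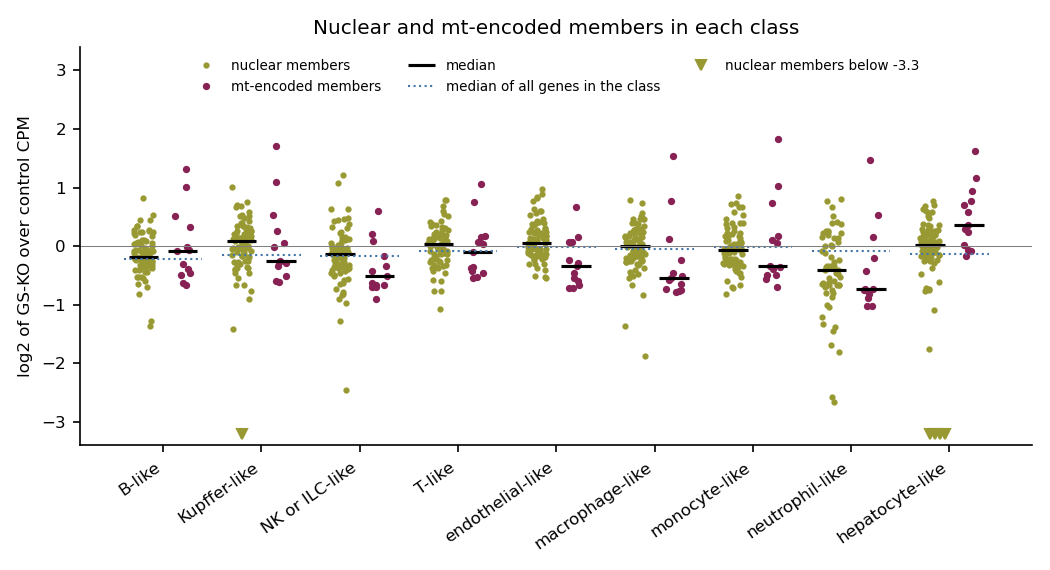
log2 of GS-KO over control CPM (y axis) of every measured gene in each cell class (x axis), olive points for nuclear and purple points for mt-encoded genes, black bars for their medians and dotted blue lines for the median of all genes in the class. Triangles are nuclear genes below the plotted range, and the mt-encoded median lies below the nuclear one in macrophage-like and the other non-hepatocyte classes except B-like cells.

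By complex, the medians in macrophage-like cells were -0.08 for complex I, 0.09 for complex III, 0.02 for complex IV and -0.02 for complex V. In Kupffer-like cells complexes III, IV and V had 0.18, 0.22 and 0.12, and in neutrophil-like cells complexes I, III, IV and V had -0.54, -0.09, -0.44 and -0.45. The genes named in each class are the 3 on either side whose interval bound nearest 1 lay farthest from it, so that some scarcer genes had larger ratios. Above 1 in macrophage-like cells these were Atp5md, Cox7c and Ndufa3. Atp5md, a small subunit that helps ATP synthase to dimerise (also Usmg5; chr19:47083464-47090647), had 133 and 222 CPM, a ratio of 1.67 (1.40 to 1.99). Cox7c, a small subunit of complex IV (chr13:86044816-86046904), had 527 and 729 CPM (1.38), and Ndufa3, an accessory subunit of complex I (chr7:3617373-3620327), had 86.5 and 129 CPM (1.49). Below 1 were Atp5o, the subunit that ties the head of ATP synthase to its stalk, with 189 and 119.5 CPM (0.631, 0.496 to 0.792), Ndufb9 with a ratio of 0.690, and Ndufa9, an accessory subunit near the ubiquinone site, with 58.0 and 32.6 CPM (0.562). The other nuclear genes past 1.5-fold there, picked out after their values were seen, were Cox4i2 above 1 with 3 GS-KO UMIs, and Ndufaf1 and Cox6b2 below 1 with 1 GS-KO UMI each, all with intervals that included 1.

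By the same rule the Kupffer-like cells had on the high side Uqcr11 (262 and 424 CPM; 1.62, 1.33 to 1.97), Atp5k, another dimer subunit of ATP synthase (141 and 239 CPM; 1.69), and Cox7c (574 and 818 CPM; 1.43). On the low side were Ndufab1, the mitochondrial acyl carrier protein that also sits in complex I (199 and 125 CPM; 0.628), Ndufb5 (215 and 148 CPM) and Ndufa10 (97.1 and 56.8 CPM). In monocyte-like cells Cox7c had 516 and 821 CPM (1.59), Ndufa3 101 and 185 CPM (1.82) and Ndufb1-ps 314 and 498 CPM. On the low side there stood Ndufb9 with 281 and 177 CPM (0.630), Ndufs4, an accessory subunit mutated in Leigh syndrome, with 156 and 88.5 CPM (0.567), and Atp5g1 with 262 and 182 CPM. Ndufa3 and Cox7c were thus high, and Ndufb9 low, in more than 1 myeloid class.

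In endothelial-like cells Atp5md had 149 and 267 CPM (1.79, 1.38 to 2.33), Ndufa3 120 and 213 CPM (1.77) and Ndufv3, a subunit of the NADH-binding arm, 104 and 178 CPM. Ndufb10 had 210 and 148 CPM (0.704), Ndufs6 173 and 119 CPM and Atp5f1, a peripheral stalk subunit, 320 and 259 CPM. In T-like cells Atp5mpl, a small subunit at the base of ATP synthase, had 165 and 284 CPM (1.72), Ndufa3 96.8 and 168 CPM (1.73) and Ndufv3 107 and 173 CPM. Cox7a2l (0.725), Ndufs4 (110 and 64.4 CPM) and Atp5h, a stalk subunit (701 and 554 CPM), were on the low side. On the low side in NK or ILC-like cells were Atp5b, the catalytic beta subunit, with 493 and 252 CPM (0.511, 0.389 to 0.661), Cox5a, a structural subunit of complex IV, with 647 and 366 CPM (0.565), and Atp5o with 402 and 224 CPM (0.559). Above 1 there were Ndufaf4, an assembly factor, with 42.8 and 90.5 CPM (2.12), Atp5mpl with 215 and 335 CPM (1.55) and Ndufa3 with 127 and 197 CPM.

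B-like cells had Ndufa1, a small X-linked subunit, at 108 and 190.0 CPM (1.77, 1.37 to 2.26), a value to which 1 GS-KO cell gave 24.7% of the UMIs, Cox7c at 381 and 517 CPM and Ndufb1-ps at 177 and 241 CPM. On the low side were the assembly factor Ndufaf3 (52.7 and 21.5 CPM; 0.409), Ndufs5 (145 and 82.3 CPM; 0.567) and Ndufb9 (191 and 121 CPM; 0.636). In neutrophil-like cells Atp5o had 70.1 CPM in control and 9.66 CPM in GS-KO (3 UMIs, 66.7% of them in 1 cell; 0.138, 0.0260 to 0.472), Ndufa11 had 66.2 and 9.66 CPM (3 UMIs, all in 1 cell), and Atp5g2 had 129 and 35.4 CPM (0.276). On the high side the rule gave Cox8a with 689 and 821 CPM (1.19, 0.979 to 1.45), Cox6b1 with 288 and 373 CPM and Ndufa7 with 203 and 267 CPM, all with intervals that included 1. In the 17 GS-KO hepatocyte-like cells Ndufa7 had 852 CPM against 502 CPM in control (1.70, with 44.5% of UMIs in 1 cell), Ndufb1-ps 590 against 368 CPM and Atp5md 617 against 408 CPM. Ndufb7 had 278 against 461 CPM (0.603), Ndufa8 248 against 416 CPM (0.596) and Cox5a 765 against 1068 CPM (0.716).

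Of the 60 nuclear genes measured in all 8 classes, 5 (8.33%) were above 1 in every class and 7 (11.7%) below, beside 3.26% and 6.07% of the 1993 genes measured in all. The 5 were Ndufa3, Ndufa1, Ndufb1-ps, Cox6c and Atp5md, and the 7 were Ndufs6, Ndufb9, Ndufb10, Cox5a, Cox7a2l, Atp5f1 and Atp5o. Ndufa3 ran from 1.27 in Kupffer-like to 1.82 in monocyte-like cells, and Cox6c, a small subunit of complex IV, from 1.08 in monocyte-like to 1.31 in Kupffer-like cells. Ndufs6, which carries the zinc site of complex I, ran from 0.564 in neutrophil-like to 0.984 in Kupffer-like cells. Cox7c was above 1 in the 7 other classes and at 0.481 in neutrophil-like cells (214 and 103 CPM). Several of these ratios had intervals that included 1 in single classes, and the classes share both libraries.

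Short transcripts had higher medians than long ones in the 8 compared classes. With the 88 nuclear genes split by transcript length, the 30 shortest (360 to 680 bases) had a median log2 of 0.11 in macrophage-like cells and the 29 longest (1110 to 4715 bases) -0.10. The same pair of medians was 0.21 and 0.01 in Kupffer-like, 0.15 and -0.04 in T-like, 0.16 and -0.03 in endothelial-like, 0.07 and -0.15 in monocyte-like, and -0.25 and -0.46 in neutrophil-like cells. In B-like cells it was -0.03 and -0.24, and in NK or ILC-like cells -0.05 and -0.23. Hepatocyte-like cells did not show it, with -0.01 and 0.02. All genes measured, split at the same lengths, had the same order in 7 of the 8 classes, for example 0.13 and -0.17 in Kupffer-like and 0.03 and -0.05 in macrophage-like cells, and the opposite order in neutrophil-like cells (-0.14 and -0.07). Their middle lengths did not always lie between. They were below the longest in B-like (-0.25 and -0.21), NK or ILC-like (-0.23 and -0.16), T-like (-0.14 and -0.09), monocyte-like (-0.13 and -0.01) and neutrophil-like cells (-0.31 and -0.07). In Kupffer-like cells they were above it (-0.04 and -0.17).

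Other genes of mitochondrial energy metabolism were followed as lists. In macrophage-like cells complex II and the electron carriers had 0 of 6 genes past 1.5-fold, with a median of 0.05: Sdhb, the iron-sulphur subunit of complex II, had 129 and 149 CPM, and Cycs, cytochrome c, 120 and 133 CPM. Assembly factors had 1 higher and 10 lower of 34 and a median of -0.31, beside 12% higher, 20.2% lower and a median of -0.05 over all genes in this class. Among them Cox10, which makes haem for complex IV, had 12.6 CPM and then 1.55 CPM (1 UMI), Coa5 had 61.3 and 35.7 CPM, and the copper chaperone Cox17 had 145 and 183 CPM. The machinery that copies and expresses mitochondrial DNA had 6 higher and 4 lower of 23 (median -0.02), with Slirp, which stabilises mt-encoded messenger RNAs, at 81.4 and 91.6 CPM and Mterf4 at 10.3 and 23.3 CPM. Mitochondrial ribosome genes had 6 higher and 3 lower of 78 (median 0.07), with Mrpl52 at 178 and 222 CPM and Mrpl51 at 120 and 71.4 CPM. None of these lists had a median as far from 0 as the mt-encoded genes in these cells.

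Among nuclear regulators of the respiratory chain 0 were higher and 2 lower of 9 in macrophage-like cells, a share near the 20.2% of all genes, with Yy1 at 95.7 and 106 CPM and Nrf1 at 12.9 and 4.66 CPM (3 UMIs). The citric acid cycle list had a median of -0.14, with Ogdh, of the 2-oxoglutarate step, at 79.1 and 45.0 CPM (0.569, 0.379 to 0.822) and Mdh2, mitochondrial malate dehydrogenase, at 135 and 115 CPM. Import and chaperone genes had 0 higher and 2 lower of 17, with the chaperonin Hspe1 at 329 and 371 CPM and the protease subunit Clpx at 29.6 and 14.0 CPM. In hepatocyte-like cells the expression machinery list had 10 higher and 5 lower of 24 (median 0.43), beside 20.8% and 35.5% of all genes (median -0.14), with Slirp at 128 and 171 CPM and its partner Lrpprc at 47.2 and 80.5 CPM. The mitochondrial ribosome list there had 13 higher and 8 lower of 78, with Mrps18b at 52.1 and 201 CPM (3.87) and Mrpl14 at 419 and 251 CPM. Cycs had 536 and 486 CPM, Cs, citrate synthase, 92.0 and 53.7 CPM, and Hspa9, the import motor, 265 and 396 CPM in those 17 GS-KO and 404 control cells.

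Other measures moved with the lower mt-encoded levels. Malat1, a nuclear non-coding RNA, was higher in the GS-KO library in all 8 compared classes, for example with 9828 and 18034 CPM in macrophage-like and 15127 and 16036 CPM in T-like cells, and lower in hepatocyte-like cells, with 1180 and 449 CPM. Ribosomal protein genes were higher in 7 of 8 (macrophage-like 114310 and 124344 CPM) and lower in neutrophil-like cells (42551 and 28756 CPM). The 13 hepatocyte markers, which other cells can carry as free RNA, were lower in the GS-KO library in all 8, with 1182 and 1076 CPM in Kupffer-like, 1071 and 868 in macrophage-like, 2430 and 235 in neutrophil-like and 553 and 35.4 CPM in NK or ILC-like cells. Their part in the respiratory chain values was not tested.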

How the data were processed

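The authors deposited UMI counts per gene and barcode, as 1 matrix a library. They were made with Cell Ranger on mm10, per the submitters' processing notes, and the file headers give software version 3.1.0. How reads shared by overlapping genes were assigned is not given in the sources used here, and 1 label line calls the libraries single-nucleus. All barcodes had at least 501 UMIs as deposited.

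Cells were filtered as stated (500 UMIs, 200 genes, 20% mt-encoded), doublets were called at an expected 5%, and cells were clustered with scanpy 1.11.5 (2000 variable genes, 30 components, 15 neighbours, Leiden resolution 1, seed 1). A class name needed 3 markers with 2-fold higher level and in 20% of cells. Summed UMIs of a class in a library are given as CPM. The log2 values of single genes and the 1.5-fold calls used a prior count of 0.5, while the printed ratios used none. The calculations were tested on simulated data. Intervals came from scipy 1.17.1. Genes and coordinates were matched to GENCODE vM21 (GRCm38); all 103 matched.

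The genes and lists were chosen with earlier results of these data known. Named genes are all 13 mt-encoded ones, the 3 with most UMIs in each nuclear complex, the 3 highest and lowest per class by the interval bound nearest 1, kept paralogues, and the most counted and most different genes of each list. Alternatives are listed in the closing section. A gene of the lists that the naming rule picks is not reported here.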

Additional observations from a re-analysis of the deposited data

Results flagged for a closer look

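Hepatocyte-like cells went against the compared classes in the ratio of mt-encoded to nuclear UMIs, with a log2 of GS-KO over control of 0.14 where all 8 other classes were below 0. Their mt-encoded genes also had a positive median log2, 0.37, against negative medians in the 8 compared classes (B-like -0.08, beside -0.21 for all genes). Over the settings this 0.37 ran from -0.48 to 0.58 and changed sign in 4 of 15, and the Kupffer-like median changed sign in 5 of 14. Neither difference was tested, and both rest on 17 GS-KO cells, of which the deepest turned the first value to -0.81 when left out. Unnamed cluster 1, also rich in hepatocyte markers, had pooled ratios of 1.85 in control and 1.34 in its 49 GS-KO cells. That is the same side as the compared classes, but its medians over cells were 1.04 and 1.49.

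Barcodes over the 20% limit, which entered no comparison between classes, held 228 mt-encoded UMIs per nuclear respiratory chain UMI in the GS-KO library and 48.2 in the control library. In these barcodes mt-Atp8 had 3.62 UMIs per 100 of mt-Atp6 in the GS-KO and 0.954 in the control library, and mt-Nd4l had 14.8 against 8.42 per 100 of mt-Nd4. The values of both gene pairs lay on the same side as in the cells kept, whereas the ratio of mt-encoded to nuclear UMIs lay on the other side.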

How the results depend on the processing

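The ratio of mt-encoded to nuclear UMIs was lower in the GS-KO library in 8 of 8 classes as reported. It was lower in 8 of 8 under each other setting tried except the 50% limit on mt-encoded UMIs (7 of 8) and the Leiden resolution of 0.5 (7 of 7, with no Kupffer-like class). Over the settings the log2 of the ratio ran from -0.72 to -0.11 in macrophage-like cells, from -0.56 to 2.35 in B-like cells, where single clusters turned it, and from -0.46 to 0.07 in T-like cells. Of those B-like clusters, 5 and 12 had overlapping counting intervals. Nuclear values past 1.5-fold over the 8 classes numbered 91, and 145 with cells thinned to 1000 UMIs, which leaves fewer UMIs a gene. Values past 1.5-fold among mt-encoded genes numbered 41, and 27 without mt-Atp8, mt-Nd4l and mt-Nd6, since fewer genes were counted. In hepatocyte-like cells the summed nuclear level was 2.55 times that in macrophage-like cells, and 2.40 to 2.72 times over the settings. A single class changed sign in 10 of 114 ratio values, 12 of 134 mt-encoded medians and 16 of 134 nuclear medians. The own-cluster values, the settings without the GS-KO cell with most mt-encoded UMIs or without those 3 genes, and the minimum of 5 expected UMIs were chosen after seeing the data. No paired analysis was possible because each group has 1 library, which also leaves no replicate to leave out. The GS-KO depth limits all values of scarce genes.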
